A study of Homo sapiens with 6 samples.

Results

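The IQGAP family consists of the genes IQGAP1, IQGAP2 and IQGAP3, 3 of the 35810 genes to which the transcripts of the RNA-seq libraries were matched. The members were taken by symbol, and the family was picked because IQGAP2 rose strongly in shARMC5 cells. Its members were therefore chosen from the log2 fold changes of the same libraries, and the changes of the members are given as descriptions without a test. All 3 members passed the filter of at least 10 counts in at least 3 libraries, which left 13737 genes to be tested.

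The libraries came from SPT5-AID cells, which are DLD-1 colorectal adenocarcinoma cells with an auxin-inducible degron on the elongation factor SPT5. Lentivirus delivered either an shRNA that targets ARMC5 (shARMC5) or the nontargeting control (shNT), and infected cells were selected with puromycin. Each condition had 3 replicates, and both carry the degron. Auxin is not named in the labels of these libraries, and the text of the study does not say which ARMC5 shRNA was chosen for them. The methods of the study count biological replicates, and the labels do not say whether these were separate cultures, so P values measure the spread between these libraries. Polyadenylated RNA was sequenced, and 26201112 to 40866478 estimated reads per library were assigned to transcripts. Because the libraries are bulk RNA, fewer cells that express a gene and less RNA per cell cannot be told apart.

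IQGAPs are large scaffold proteins. A calponin homology domain at the amino terminus binds F-actin, IQ motifs bind calmodulin and myosin light chains, and a domain related to RasGAPs binds active CDC42 and RAC1 without the GTPase-activating activity that gave the family its name. IQGAP1 is made by most cells and joins actin filaments, microtubule plus ends, cadherin junctions and the kinases of the RAF-MEK-ERK cascade. IQGAP2 is best known from the liver and is less widely expressed. IQGAP3 is found mainly in proliferating cells.

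The knockdown was read first. ARMC5 (ENSG00000140691) had 10.8, 12.0 and 12.9 CPM in the shARMC5 libraries and 23.0, 25.9 and 26.7 CPM in the shNT libraries, where CPM are reads per 1000000 after TMM normalization. The groups did not overlap, and the log2 fold change was -1.09 (SE 0.08, adjusted P = 5.32e-07 from edgeR's test). Of the genes that mark colon epithelium, EPCAM had 1028 ± 22.6 TPM in shARMC5 and 1021 ± 35.5 TPM in shNT cells (SD, n = 3 each), and KRT8, KRT18, CDH1 and CDX2 were also above 100 TPM. CDX1 was at 0 in every library, LGALS4 and GPA33 averaged under 1 TPM in both conditions, and VIL1, the gene of villin, fell from 8.59 ± 1.18 to 3.56 ± 0.643 TPM (SD, n = 3 each; log2 fold change -1.30, SE 0.11, adjusted P = 2.77e-06 from edgeR's test). Of the 10 colon markers 9 were matched and KRT20 was not analysed here. Their summed level ranged from 7778 to 8070 TPM in shARMC5 and from 6839 to 7321 TPM in shNT libraries, and KRT8 (log2 fold change 0.18, adjusted P = 0.000412 from edgeR's test) and KRT18 (0.25, adjusted P = 1.20e-05) were called higher.

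IQGAP2 (ENSG00000145703) spans positions 76403285 to 76708132 of chromosome 5 on the plus strand of GRCh38. Its 2 full-length transcripts start 144124 bases apart. In shNT replicate 3, 44.3 reads were assigned to the second of them, which has 43 exonic bases that the first lacks. The other libraries had 0 reads on it, and which start is used was not resolved here. Both promoters are therefore shown as the 250 bases before the start, 5′ to 3′ on the plus strand, from RefSeq on GRCh38.p14. Capitals mark the letters GGAATG, the core of a TEAD site, which was searched on both strands, as was TGANTCA, the letters of an AP-1 site.
IQGAP2-201, chr5:76403035-76403284: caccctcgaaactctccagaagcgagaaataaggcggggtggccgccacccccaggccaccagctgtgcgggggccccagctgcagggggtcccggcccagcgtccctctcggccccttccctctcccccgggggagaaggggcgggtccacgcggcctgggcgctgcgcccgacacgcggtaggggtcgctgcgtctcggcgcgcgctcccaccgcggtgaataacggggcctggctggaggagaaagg
IQGAP2-202, chr5:76547159-76547408: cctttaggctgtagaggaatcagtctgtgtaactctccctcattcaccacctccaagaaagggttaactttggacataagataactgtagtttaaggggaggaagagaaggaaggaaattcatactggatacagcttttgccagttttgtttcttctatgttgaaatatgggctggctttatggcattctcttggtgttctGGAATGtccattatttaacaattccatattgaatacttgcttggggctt
The promoter before IQGAP2-201 had a GC content of 73.6% and 26 CpG dinucleotides, and neither motif was found in it. The promoter before IQGAP2-202 had a GC content of 40.0%, 0 CpG dinucleotides and 1 GGAATG, 49 bases before the start. The median of 34941 promoter windows of this length was a GC content of 58% and 11 CpG dinucleotides, with GGAATG in 11.9% and TGANTCA in 6.59% of them. The promoters of IQGAP1 (GC content 74.4%, 25 CpG dinucleotides) and IQGAP3 (63.2%, 15 CpG dinucleotides) were closer to that before IQGAP2-201. GGAATG was found once in the IQGAP1 window, 242 bases before the start, and not in that of IQGAP3. A match of letters is no measure of binding.

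Levels of different genes were compared in TPM, which is corrected for transcript length. IQGAP1 had 96.8, 103 and 88.4 TPM in the shARMC5 libraries and 99.6, 94.9 and 94.7 TPM in the shNT libraries. IQGAP3 had 18.8, 17.1 and 16.5 TPM in shARMC5 and 18.2, 18.1 and 17.6 TPM in shNT libraries. IQGAP2 had 1.94, 1.47 and 1.82 TPM in shARMC5 and 0.447, 0.781 and 0.678 TPM in shNT libraries. The order IQGAP1, IQGAP3, IQGAP2 held in each of the 6 libraries, and the ranges of neighbours in this order did not overlap. By the mean TPM of shNT cells, IQGAP1 ranked 1669th among the 13737 tested genes and IQGAP3 6612th, near the median of 16.6 TPM. IQGAP2 ranked 12496th, with 9.03% of the tested genes below it.

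**Figure D1:**
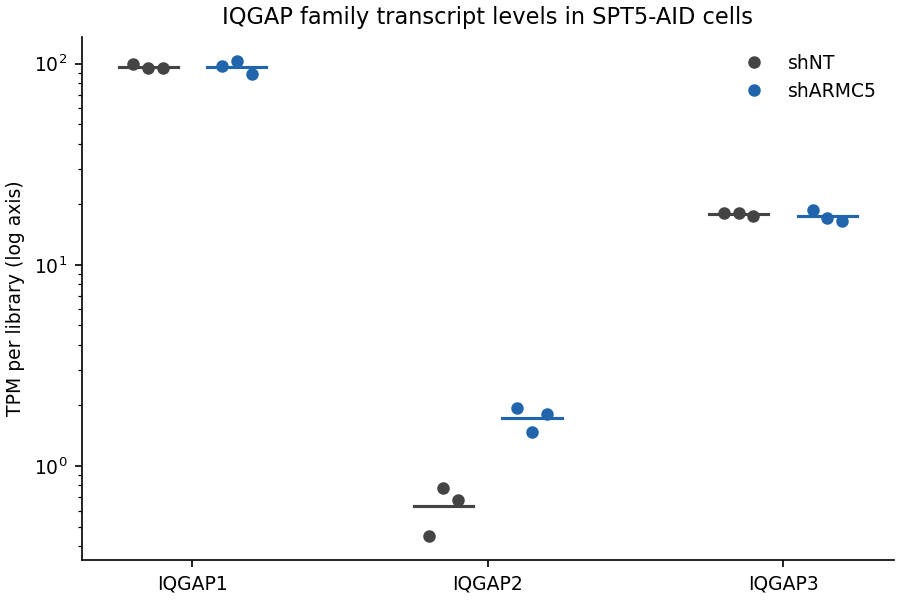
TPM of each IQGAP gene in each library on a log axis, with shNT in black and shARMC5 in blue; points are libraries and lines are the means of 3. IQGAP1 lies near 96 TPM and IQGAP3 near 18 TPM in both conditions, while the IQGAP2 points of shARMC5 (1.47 to 1.94 TPM) lie above those of shNT (0.447 to 0.781 TPM).

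IQGAP2 was the member that differed between the conditions. It was covered by 127, 181 and 132 reads in the shARMC5 libraries and by 54, 54 and 47 reads in the shNT libraries. As a measure of precision and not as a test, the 95% exact Poisson interval of counting error was 106 to 151 for 127 reads and 40.6 to 70.5 for 54 reads. In CPM, which allows for the depth of each library, IQGAP2 had 4.19, 4.59 and 5.23 in shARMC5 and 1.65, 1.67 and 1.68 in shNT libraries. Every shARMC5 library was above every shNT library, and the shNT values lay close together. The means were 4.67 ± 0.527 CPM in shARMC5 and 1.66 ± 0.0128 CPM in shNT cells (SD, n = 3 each), which is 2.81 times as high in shARMC5, and the log2 fold change was 1.48 (SE 0.17). Among the 12114 tested genes that averaged 1 CPM or more, this change was the 9th highest, between KRTAP3-1, a keratin-associated protein gene (1.53, SE 0.90), and the HERC3 entry ENSG00000287542 (1.48, SE 0.27). KRTAP3-1 rested on 58, 57 and 49 reads in shARMC5 and on 28, 29.7 and 0 reads in shNT libraries, and it was not called.

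IQGAP1 lies on chromosome 15 from 90388242 to 90502239 on the plus strand (ENSG00000140575) and was covered by 8097 to 14032 reads per library. It had 354, 356 and 321 CPM in shARMC5 and 350, 345 and 347 CPM in shNT libraries. The groups overlapped, with the lowest and the highest value both in shARMC5. The means were 344 ± 19.5 and 348 ± 2.54 CPM (SD, n = 3 each), and the log2 fold change was -0.02 (SE 0.04). IQGAP3 lies on chromosome 1 from 156525405 to 156572604 on the minus strand (ENSG00000183856), with 1654 to 2709 reads per library. It had 75.5, 68.7 and 65.6 CPM in shARMC5 and 70.2, 69.6 and 72.1 CPM in shNT libraries, and these also overlapped. The means were 69.9 ± 5.09 and 70.6 ± 1.32 CPM (SD, n = 3 each), with a log2 fold change of -0.01 (SE 0.05). Both genes thus differed by less than the spread between the shARMC5 libraries.

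Genes are referred to as called where edgeR's test gave an adjusted P value under 0.1. Of the 13737 genes, 1064 (7.75%) were called, 610 higher (4.44%) and 454 lower (3.3%) in shARMC5 cells, and the groups did not overlap for 3213 (23.4%). Of the 3 IQGAPs, 1 was called and 1 had groups that did not overlap, in both cases IQGAP2. The rule of choice used this contrast, so nothing is read from that count.

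The sum of the family remained at 115 ± 7.88 TPM in shARMC5 and 115 ± 2.80 TPM in shNT cells (SD, n = 3 each). IQGAP2 made up 1.52 ± 0.274% of it in shARMC5 and 0.555 ± 0.159% in shNT cells (SD, n = 3 each). IQGAP1 was 48.7 to 70.5 times IQGAP2 in the shARMC5 and 121 to 223 times in the shNT libraries. The ratio of IQGAP1 to IQGAP3 was 5.52 ± 0.474 in shARMC5 and 5.37 ± 0.126 in shNT cells (SD, n = 3 each), and the groups overlapped.

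The transcripts of the members were then examined. The files listed 18 transcripts of IQGAP1, 18 of IQGAP2 and 4 of IQGAP3. For IQGAP2, 12 of the 18 were at 0 in all libraries, and 1 had at least 10 reads in at least 3 libraries. This was IQGAP2-201 (ENST00000274364), which has 36 exons and 5808 bases and encodes 1575 residues. It held 90.5, 167 and 127 reads in shARMC5 and 54.0, 50.1 and 0 reads in shNT libraries. IQGAP2-202 (ENST00000379730), with 35 exons and 1525 residues, held 44.3 reads in shNT replicate 3 and 0 reads in the other 5 libraries. The transcripts share 5399 exonic bases, which are 93.0% of IQGAP2-201 and 99.2% of IQGAP2-202, so that 409 and 43 bases can tell them apart. Most of the remaining reads in shARMC5 replicates 1 and 2 were placed on shorter forms, with 21.7 and 12.1 reads on IQGAP2-206, annotated for nonsense-mediated decay, and 13.5 and 0 reads on IQGAP2-215. Both of these were at 0 in the shNT libraries and in shARMC5 replicate 3.

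**Figure D2:**
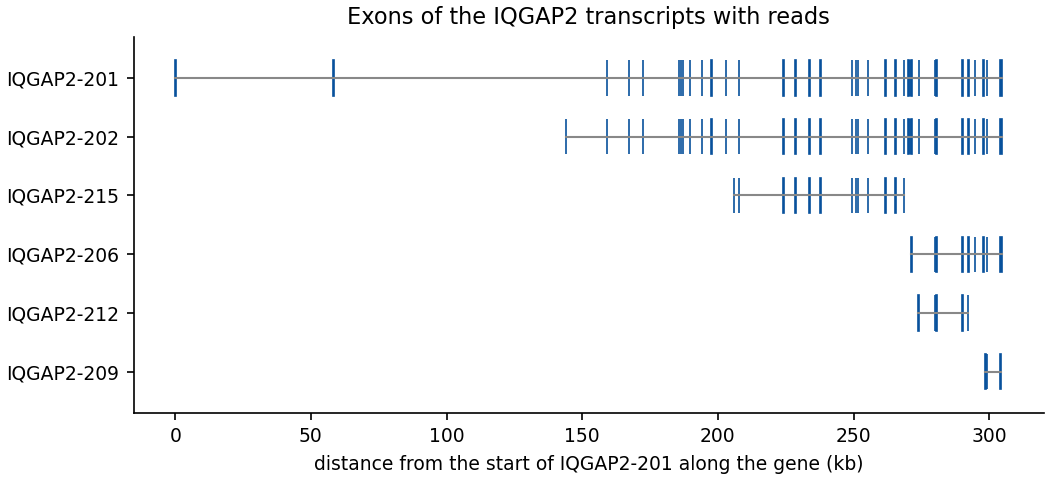
Exons (bars) and introns (lines) of the 6 IQGAP2 transcripts with reads, drawn to scale by distance in kb from the start of IQGAP2-201. IQGAP2-202 starts 144124 bases downstream and has nearly the same exons from there on, and the other transcripts cover parts of the gene.

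IQGAP2-201 held 61.9 ± 18.8% of the TPM of the gene in shARMC5 and 50.5 ± 50.0% in shNT cells (SD, n = 3 each; two-sided exact permutation test, P = 0.8). With 3 libraries against 3 this test cannot fall below 0.1. The share ranged from 0% in shNT replicate 3 to 100% in shNT replicate 1, and shNT replicate 3 decides the direction, since without it the difference of 11.5 percentage points became -13.8. The sum of IQGAP2-201 and IQGAP2-202 was also taken, after their values had been seen. They held 90.5, 167 and 127 reads in shARMC5 and 54.0, 50.1 and 44.3 reads in shNT libraries. Their summed level was 1.05 ± 0.250 TPM in shARMC5 and 0.425 ± 0.0227 TPM in shNT cells (SD, n = 3 each), a ratio of 2.48, and the groups did not overlap.

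**Figure D3:**
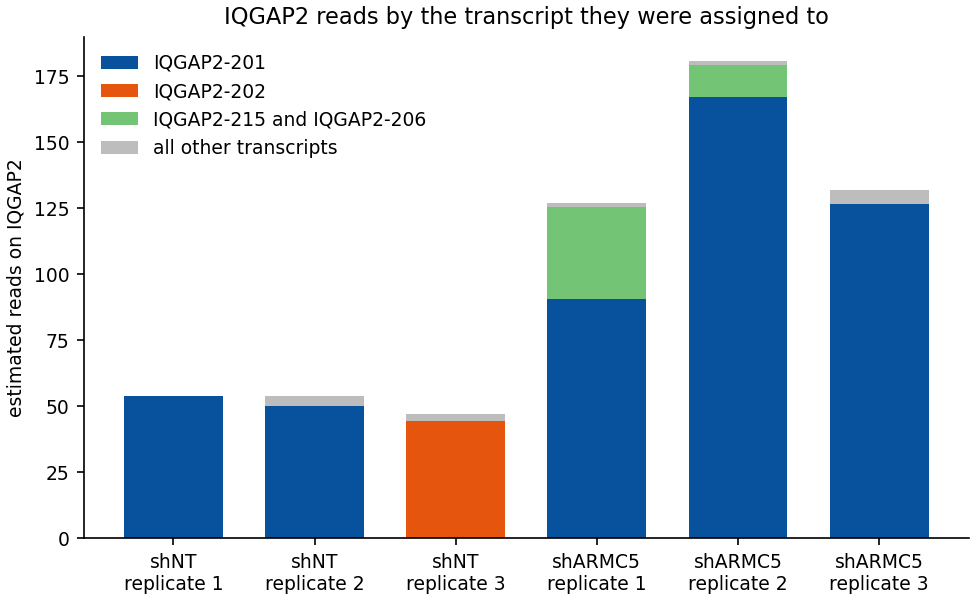
Estimated reads on IQGAP2 in each library (vertical axis), stacked by the transcript to which salmon assigned them. The shARMC5 bars reach 127 to 181 reads and the shNT bars 47 to 54 reads, and the reads of shNT replicate 3 lie on IQGAP2-202 and not on IQGAP2-201.

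IQGAP1 and IQGAP3 were mostly read from 1 transcript each. IQGAP1-201, with 38 exons and 1657 residues, held 97.5% of the IQGAP1 reads in shARMC5 and 97.6% in shNT cells, and 70.2 ± 2.57% of its TPM in shARMC5 and 71.7 ± 0.960% in shNT cells (SD, n = 3 each; two-sided exact permutation test, P = 0.5). IQGAP1-206, a transcript of 550 bases with a retained intron, had 183 to 363 reads, which came to 26.1% to 31% of the TPM because it is short. IQGAP3-201, with 38 exons and 1631 residues, held 90.7 ± 1.67% of the TPM in shARMC5 and 89.0 ± 2.75% in shNT cells (SD, n = 3 each; two-sided exact permutation test, P = 0.5). IQGAP3-203, annotated for nonsense-mediated decay, had 0 to 75.8 reads. No stretch of 31 bases in these leading transcripts or IQGAP2-202 was shared with another member. Of the 5983 stretches in IQGAP3-201, 3 were found in other genes, and 0 in the IQGAP1 and IQGAP2 transcripts.

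The genes around each member were compared by edgeR's test over all genes. IQGAP2 overlaps F2RL2, which lies on the opposite strand and had 3 to 18.1 reads per library, too few to be tested. It had 5.67 ± 2.31 reads in shARMC5 and 9.74 ± 7.26 reads in shNT cells (SD, n = 3 each). Beyond the 3′ end of IQGAP2 lie the thrombin receptor gene F2R, at 7994 bases, and F2RL1, which encodes another protease-activated receptor, at 110801 bases. F2R had 15.8 ± 0.269 CPM in shARMC5 and 14.8 ± 0.841 CPM in shNT cells (SD, n = 3 each; log2 fold change 0.10, SE 0.07, adjusted P = 0.510). F2RL1 had a log2 fold change of 0.15 (SE 0.05, adjusted P = 0.132) with groups that did not overlap. On the other side, POC5, a centriole gene, had a log2 fold change of 0.15 (SE 0.09, adjusted P = 0.399). The synaptic vesicle gene SV2C had 0.11 (SE 0.45, adjusted P = 0.933). With an offset for transcript length in edgeR the log2 fold change became 0.06 for F2R, 0.26 for POC5 and 2.52 for SV2C, and none of these was called there either. None of the 4 tested neighbours of IQGAP2 was thus called, but F2RL1 was called in 5 of 14 alternatives, among them DESeq2 (adjusted P = 0.0749) and the fits without shARMC5 replicate 3 (0.0648) or shNT replicate 2 (0.0843).

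Of the 12 neighbours tested around the 3 members, 1 was called lower and 1 higher, beside 7.75% of all tested genes in either direction. CRTC3, a coactivator of CREB that lies 27684 bases after IQGAP1, fell from 30.9 ± 0.723 to 26.4 ± 1.11 CPM (SD, n = 3 each; log2 fold change -0.23, SE 0.06, adjusted P = 0.0277), and it was not called in 4 of 14 alternative analyses. GPATCH4, 21697 bases from IQGAP3, rose from 110 ± 3.03 to 118 ± 1.12 CPM (SD, n = 3 each; log2 fold change 0.10, SE 0.03, adjusted P = 0.0944), and it was not called in 9 of the 14. NGRN (0.07), ZNF774 (0.14) and BLM (-0.07) beside IQGAP1 and MIR9-1HG (-0.15), MEF2D (0.08) and NAXE (-0.05) beside IQGAP3 were not called. Over the alternatives ZNF774 lay between 0.04 and 0.33 and MIR9-1HG between -0.65 and 0.22, and neither was called in any of them.

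The genes of proteins that bind IQGAPs, act with them or share a domain with them were taken from 11 lists with 124 genes in all, of which 120 were tested. Of these 10 were called higher and 7 lower, together 14.2%, beside 7.75% of all tested genes. Without shNT replicate 1 there were 4 higher and 2 lower, with 536 of all tested genes called. With the offset for transcript length, edgeR called 3 partners higher and 1 lower among 234 genes in all, and DESeq2 7 higher and 5 lower among 568. The median log2 fold change was 0.01 over the partners and 0.00 over all tested genes, and the median absolute change was 0.06 over the partners and 0.08 over all. The partner genes were read more deeply, with a median of 125 CPM against 26.9 CPM, and the part of depth in the share called was not tested. No called partner changed by more than 0.33 on the log2 scale, against 1.48 for IQGAP2.

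In the next 4 lists no gene was called, and with 6 to 13 genes a list they are too short for this to stand apart from the 7.75% of all tested genes. Of the 6 tested genes of calmodulin and myosin light chains, which occupy the IQ motifs, 0 were called (median log2 fold change 0.02). Of the 12 small GTPases 0 were called, with CDC42 at 0.08 (SE 0.03, adjusted P = 0.158 from edgeR's test) and RAC1 at 0.07 (SE 0.03, adjusted P = 0.135). The groups did not overlap for 5 of these 12, each with a change of at most 0.12, beside 23.4% of all tested genes. Of the 9 genes of microtubule plus ends, where CLIP1 (-0.04) and APC (-0.07) act, 0 were called (median -0.04). The 13 genes of phosphoinositide and AKT signalling also gave 0 calls (median -0.01).

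Both cytoplasmic actin genes rose. Of the 18 genes of actin assembly 4 were called higher and 0 lower (median log2 fold change 0.06), beside 4.44% higher and 3.3% lower of all tested genes. EZR, which encodes the membrane linker ezrin, had 649, 683 and 651 CPM in shARMC5 and 565, 602 and 563 CPM in shNT libraries (log2 fold change 0.20, SE 0.03, adjusted P = 0.00121 from edgeR's test). ACTB, the gene of β-actin, had 3804, 3862 and 3857 CPM in shARMC5 and 3393, 3554 and 3344 CPM in shNT libraries (log2 fold change 0.16, SE 0.03, adjusted P = 0.00121). The groups of both genes did not overlap, and both were called in all 14 alternatives. ACTG1, the gene of γ-actin, rose by 0.15 (adjusted P = 0.00458), and the formin gene DIAPH1, whose product is localized by IQGAP1 in migrating cells, rose by 0.12 (adjusted P = 0.0250). With an offset for transcript length in edgeR neither was called (adjusted P = 0.112 and 0.197), while both were called with that offset in DESeq2 (adjusted P = 0.00272 and 0.0718). DIAPH1 was also not called without shARMC5 replicate 2 or without shNT replicate 1. The 9 tested genes of the Arp2/3 complex, such as ARPC2 (0.07) and ACTR3 (0.05), were not called.

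Genes of cell adhesion were called in both directions. Of the 11 genes of cell adhesion partners 3 were called higher and 3 lower (median log2 fold change 0.02), beside 4.44% higher and 3.3% lower of all tested genes. LGR5, a receptor for R-spondins and a marker of intestinal stem cells that is listed here as an IQGAP1 partner, had 34.5, 34.7 and 34.9 CPM in shARMC5 and 43.0, 42.6 and 45.5 CPM in shNT libraries. All shARMC5 values were lower than all shNT values (log2 fold change -0.33, SE 0.05, adjusted P = 0.000787 from edgeR's test), and LGR5 was called in all 14 alternatives. CTNND1, the gene of p120-catenin, fell by 0.11 (adjusted P = 0.0229) and AFDN, the gene of afadin, by 0.12 (adjusted P = 0.0810). CTNNA1, CTNNB1 and ITGB1, which encode α-catenin, β-catenin and the integrin β1 chain, rose by 0.09, 0.08 and 0.09 (adjusted P = 0.0433, 0.0584 and 0.0774). E-cadherin, whose junctions IQGAP1 weakens, is encoded by CDH1, which was at 0.00 (SE 0.03) and not called. The calls of AFDN, CTNNA1, CTNNB1 and ITGB1 were each lost in 6 to 8 of the 14 alternatives, and that of CTNND1 in 3. With the offset for transcript length in edgeR, CTNNB1 had a log2 fold change of 0.03, and without shARMC5 replicate 3 AFDN had -0.08.

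Of the 12 genes of the RAF-MEK-ERK cascade and its receptors, ERBB2 was called lower, with 146, 136 and 137 CPM in shARMC5 and 155, 157 and 150 CPM in shNT libraries (log2 fold change -0.14, SE 0.03, adjusted P = 0.0250 from edgeR's test). The other 11 were not called, among them EGFR (-0.02) and BRAF (-0.06). Of the 10 genes of cytokinesis, ECT2, a RHOA exchange factor, rose by 0.12 (adjusted P = 0.0199) and PRC1, a midzone bundling protein, by 0.09 (adjusted P = 0.0529), while the gene of citron kinase, CIT, fell by 0.12 (adjusted P = 0.0964). Of the 10 genes of WNT and Hippo signalling, the kinase LATS1 was lower, with 42.8, 43.5 and 40.9 CPM in shARMC5 and 50.1, 48.5 and 49.6 CPM in shNT libraries (log2 fold change -0.22, SE 0.05, adjusted P = 0.00931), and the coactivator YAP1 rose by 0.09 (adjusted P = 0.0770; not called in 10 of the 14 alternatives). Of the 10 genes of the exocyst and secretion, EXOC3 was called and fell by 0.10 (adjusted P = 0.0864). Over the 14 alternatives the call was lost in 1 for ECT2, 2 for LATS1, 3 for ERBB2, 7 for PRC1 and CIT and 8 for EXOC3, in each case including the offset for transcript length in edgeR. With that offset in DESeq2, ECT2, ERBB2, CIT and EXOC3 were called and LATS1 and PRC1 were not. The edgeR offset also moved the log2 fold change of PRC1 to 0.03, of CIT to -0.26 and of EXOC3 to -0.17. The counts of 1 to 3 called genes in each of these 4 lists stand beside 7.75% of all tested genes. None of the 9 tested genes of the RasGAP domain family, which shares the domain that binds GTPases in IQGAPs, was called. RASA4 had a log2 fold change of 0.64 (SE 0.70, adjusted P = 0.708) on 2.28 to 34.9 reads.

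**Figure D4:**
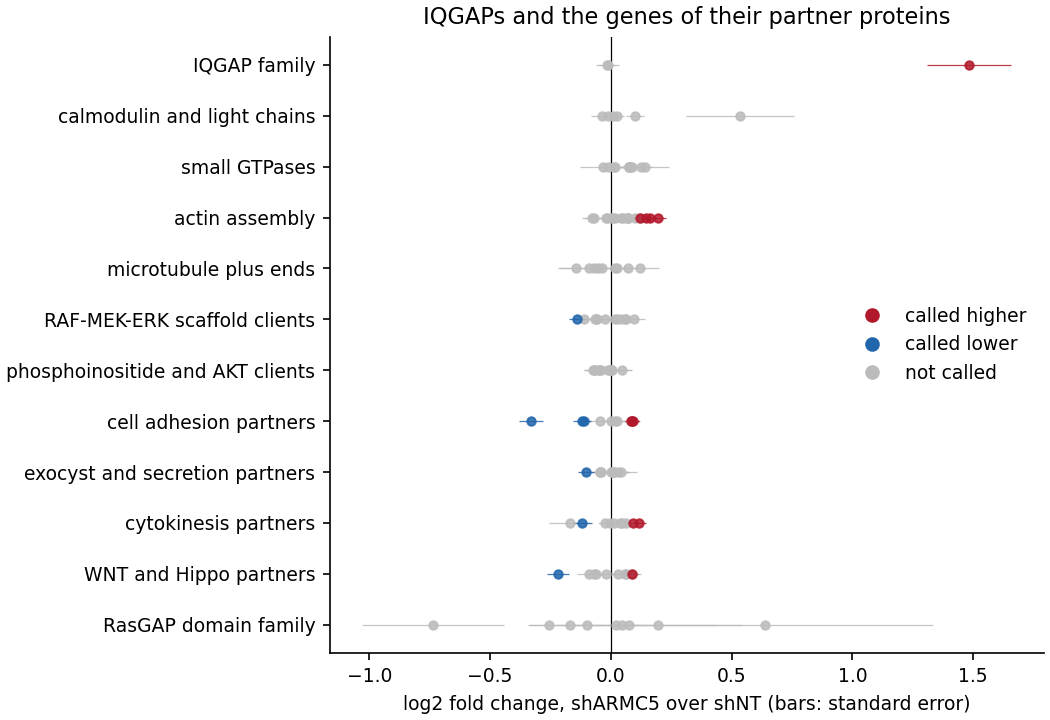
Log2 fold change of shARMC5 over shNT (horizontal axis) with its standard error for the IQGAPs and the tested genes of each partner list (rows); red and blue mark genes called higher and lower and grey those not called. IQGAP2 lies at 1.48, while the called partners lie between -0.33 and 0.20.

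Genes with the pattern most like that of IQGAP2 were found by the root mean square difference of log2(CPM + 0.5), centred on the mean of each gene, over the 6 libraries and among 12113 genes. SLC2A3, which encodes the glucose transporter GLUT3, was nearest with a difference of 0.127. It had 14.4, 15.3 and 14.4 CPM in shARMC5 and 6.42, 6.94 and 5.92 CPM in shNT libraries, so that the groups did not overlap. The next were the HERC3 entry ENSG00000287542 (0.167), LHFPL6 (0.212), OLFML3 (0.227) and FANCD2 (0.241). The mean level of these 5 genes was between 1.80 and 2.80 times as high in shARMC5 as in shNT cells, with log2 fold changes from 0.85 to 1.48. FANCD2, a gene of the Fanconi anaemia pathway, had a log2 fold change of 0.15 with the offset for transcript length in edgeR and 0.13 with that in DESeq2, in place of 0.85. The likeness rests mostly on the difference between the conditions, since 6 libraries hold little else.

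**Figure D5:**
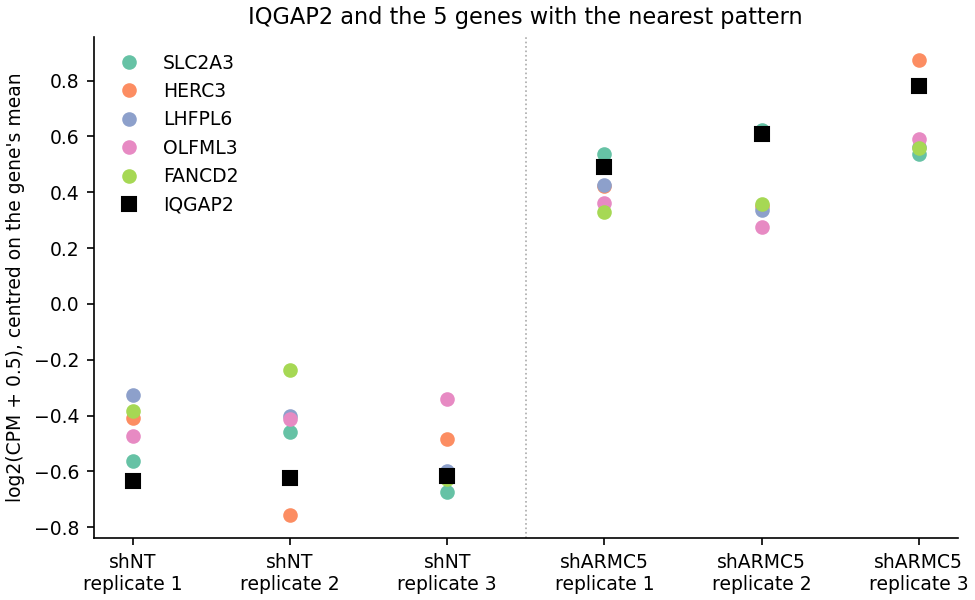
Log2(CPM + 0.5) centred on the mean of each gene (vertical axis) in the 3 shNT and 3 shARMC5 libraries for IQGAP2 (black squares) and the 5 genes of nearest pattern (coloured points; HERC3 is the entry ENSG00000287542). All 6 genes lie below 0 in each shNT library and above 0 in each shARMC5 library.

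Except for PF4, the markers of other cell types were low in both conditions. IQGAP2 is strongly expressed in liver and platelets, and the 7 hepatocyte markers summed to 0.0890 to 0.411 TPM in shARMC5 and 0.0973 to 0.618 TPM in shNT libraries, with TTR, FGA and FGB at 0. Of the 5 platelet markers PPBP, GP9 and GP1BA were at 0, and the summed level of 15.3 to 17.3 TPM in shARMC5 and 13.0 to 14.2 TPM in shNT libraries came mostly from PF4 (16.2 ± 0.911 and 13.6 ± 0.557 TPM; SD, n = 3 each), which was not called. The 6 fibroblast markers summed to 0.518 to 1.01 TPM in shARMC5 and 0.636 to 1.31 TPM in shNT libraries, with COL3A1 and LUM at 0. The 6 leukocyte markers summed to 1.9 to 3.29 TPM and 1.96 to 4.06 TPM, with CD3E at 0.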

How the data were processed

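For 6 polyadenylated RNA libraries, the authors trimmed reads (cutadapt 4.2) and estimated transcript abundance (Salmon 1.9.0), correcting for GC content. The deposited files give, per transcript, the estimated count, TPM, length and effective length. The deposited TPM were summed per gene as given, and the authors' effective lengths served the length offset. The labels name hg38, and the transcript set is not given in the sources used here. Identifiers of the 177456 transcripts were matched without version to GENCODE 44, and 165533 matched 35810 genes. The other 11923, with 2.96% to 3.04% of reads, were left out. Those listed next to the members held 0 reads. The library kit (NEBNext Ultra II RNA) does not mark strand.

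Estimated counts were summed per gene, rounded, filtered (10 counts in 3 libraries) and tested with edgeR 4.0.16 in R 4.3.3 (quasi-likelihood F test, TMM factors, robust fit, condition only, Benjamini-Hochberg threshold 0.1). The SE is the log2 fold change divided by the square root of F. Depth of 26201112 to 40866478 reads left IQGAP2 with 47 to 181 reads, so counting error limits its precision. Shares within a gene were compared by two-sided exact permutation tests (scipy 1.17.1).

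The members, lists and tests were chosen with earlier results of these data known. The genes named are the members, ARMC5, called partners (at most 4 each way per list), overlapping genes and the 2 nearest tested genes on each side, the genes beside IQGAP2 by log2 fold change, the 5 of nearest pattern, and the cell type markers. Partners named without a call were chosen after their values were seen, and some genes of the lists are counted but not reported by name here. Alternatives were DESeq2 1.42.0 without and with a length offset, and, in edgeR, that offset, size factors of DESeq2, library size only, genes with at least 1 count, filterByExpr, a replicate block, the unmatched transcripts added, each library left out, an adjusted P under 0.05, an absolute log2 fold change of at least 1, shares of reads in place of TPM, and TPM divided by the TMM factors. Promoters came from RefSeq (GRCh38.p14); the IQGAP2 start at 76609111 was searched but not shown.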

Additional observations from a re-analysis of the deposited data

How the results depend on the processing

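The log2 fold change of IQGAP2 lay between 1.40 and 1.56 in its 15 alternatives. That of IQGAP1 lay between -0.04 and 0.03 and that of IQGAP3 between -0.07 and 0.03. The members were chosen on this contrast, so these ranges are descriptions. Counts of calls moved more. With the length offset in edgeR, 234 genes were called, with 3 partners higher, 1 lower and 0 neighbours. With DESeq2 and that offset 568 genes were called, with 7 partners higher, 5 lower and 0 neighbours. With library size only, 953 genes were called, with 6 partners higher, 7 lower and 1 neighbour. The replicate block gave 1766 genes, 25 partners higher, 12 lower and 4 neighbours. Over all tested genes, weighted alike, the deviations of same-numbered libraries had correlations of -0.0136, -0.0059 and -0.0216. Counting noise of genes with few reads enters this measure, so it cannot decide whether same-numbered libraries vary together in deeply read genes. The replicate block called more genes than the 1064 of the main fit, which took condition only. Whether the numbers mark pairs was not resolved here. With an adjusted P value under 0.05, 676 genes were called, with 6 partners higher, 4 lower and 1 neighbour. With a minimum absolute log2 fold change of 1 there were 34 genes and 0 partners in either direction and 0 neighbours. Leaving out 1 library gave 536 (without shNT replicate 1) to 1085 genes (without shNT replicate 2), 4 to 12 partners higher, 2 to 7 lower and 0 to 3 neighbours. The fewest partners were called without shNT replicate 1 (4 higher and 2 lower), and without shARMC5 replicate 2 there were 4 higher and 5 lower. The cause of these shifts was not tested. The share of IQGAP2-201 differed by -13.8 to 36.2 percentage points over its 7 alternatives. It rested on 47 to 181 reads of the gene per library, and which full-length transcript is present was not resolved here.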
